A study of Mus musculus with 18 samples.

Results

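The replication-dependent histone genes of mouse chromosome 13 were examined for H3K4me3, a histone mark found at active and poised promoters. The members were the protein-coding genes of the RefSeq table for mm10 between 21600 and 23700 kb of chromosome 13 whose symbols begin with Hist1, H1f, H2ac, H2bc, H3c or H4c. The rule gave 42 genes out of 21887 coding genes in all: 4 linker histone H1 genes, 11 H2A genes, 12 H2B genes, 6 H3 genes and 9 H4 genes. They lay in 3 blocks of 17, 5 and 20 genes, at 21715711 to 21833475, 22035122 to 22043658 and 23531044 to 23698458, with 50 other coding genes in the same 2.1 Mb, 36 of them vomeronasal receptor genes (Vmn1r).

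H3K4me3 was mapped by CUT&RUN, which cuts chromatin free around the bound antibody with a tethered nuclease, from 4000 nuclei per library. The cells were prospermatogonia, the fetal male germ cells, taken at E17.5 as positive for the germ cell reporter Oct4-GFP. The genotypes, with 3 libraries each, were Tet1-/- (KO, no TET1), Tet1HxD/HxD (HxD, an allele altered in the iron-binding motif of TET1 and known as catalytically inactive) and Tet1+/+ (WT). The series title asks how TET1, an enzyme that oxidises 5-methylcytosine, acts on chromatin apart from its catalysis, and all 3 genotypes share the reporter, the age and 1 batch label.

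As background, these genes encode the bulk of the histones laid down on newly copied DNA and are transcribed in S phase. They are short and without introns, most H2A genes stand head to head with an H2B gene, and their mRNAs end in a stem-loop instead of a poly(A) tail. NPAT gathers at the cluster in the histone locus body and drives transcription, while separate promoter elements serve each class. Prospermatogonia at this age are in mitotic arrest, and replacement histones such as H3.3 are made outside S phase from genes elsewhere.

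The values below are covered bp: the length of the gene with 1 kb on each side that lies under H3K4me3 peaks in a library. A gene whose window is covered from end to end reaches its ceiling, so wider marking there does not count. Because the genes are packed, 33 of the 42 windows overlap the window of another member, and a single peak can count at several genes. The members are therefore not independent measurements. The depth in reads is unknown, and the lists held 69901 to 80232 peaks in KO, 49624 to 67925 in HxD and 83586 to 128701 in WT, covering 50.5 to 73.0 Mb, 45.6 to 69.3 Mb and 76.6 to 108.9 Mb. Of 12 germ cell markers, 9 to 12 had a peak within 1 kb in each library. Peaks were also called at 6 of 6 Sertoli markers, at 3 to 4 of 6 Leydig or interstitial markers and at 4 to 6 of 6 endothelial or blood markers. Over the 6 Sertoli markers the median was 2259 to 3553.5 covered bp in KO, 2326.5 to 3766.5 in HxD and 3595 to 4211 in WT. Over the 6 endothelial or blood markers it was 709 to 1560.5 in KO, 526 to 1341.5 in HxD and 1884 to 2426.5 in WT. Most mutant libraries were thus below WT on both lists. The Leydig or interstitial medians overlapped, at 189 to 720 in KO, 153.5 to 641.5 in HxD and 257 to 1153 in WT. The germ cell medians overlapped too, at 1185 to 1864.5 in KO, 692 to 1682.5 in HxD and 940 to 1680.5 in WT. The part of Sertoli, Leydig, endothelial or blood cells in the values at histone genes was not tested. Among the KO libraries, replicate 1 stood apart at the members, with a median of 1390.5 covered bp against 1891.5 in replicate 2 and 2247.5 in replicate 3, so KO values are given with and without it where it matters.

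The start regions of 6 members, from every class, are shown with matches to promoter elements, and they include genes the comparisons turn on. Each line gives 250 bases before to 50 bases after the start, from RefSeq, in the build GRCm38.p6, 5′ to 3′ on the strand of the gene. Capitals mark matches on either strand. In 5 of the lines they mark CCAAT, the TATA box written TATAAA and, in the linker histone genes, the H1 box written AAACACA. In H4c8 they mark GGTCC, part of an H4 promoter element.
H2bc13 chr13:21716134-21716433 (-): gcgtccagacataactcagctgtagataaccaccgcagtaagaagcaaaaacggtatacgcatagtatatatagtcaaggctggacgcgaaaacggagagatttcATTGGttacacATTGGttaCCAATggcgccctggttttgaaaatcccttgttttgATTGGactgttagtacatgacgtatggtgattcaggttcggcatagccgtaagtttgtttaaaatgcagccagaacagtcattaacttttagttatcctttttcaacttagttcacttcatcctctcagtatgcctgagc
H2ac10 chr13:23533625-23533924 (+): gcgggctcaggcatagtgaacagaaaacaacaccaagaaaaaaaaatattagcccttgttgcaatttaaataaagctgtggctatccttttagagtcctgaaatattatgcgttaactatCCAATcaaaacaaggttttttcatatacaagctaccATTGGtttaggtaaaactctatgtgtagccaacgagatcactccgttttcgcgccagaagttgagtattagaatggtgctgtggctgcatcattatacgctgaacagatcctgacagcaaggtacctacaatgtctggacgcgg
H3c10 chr13:21717378-21717677 (+): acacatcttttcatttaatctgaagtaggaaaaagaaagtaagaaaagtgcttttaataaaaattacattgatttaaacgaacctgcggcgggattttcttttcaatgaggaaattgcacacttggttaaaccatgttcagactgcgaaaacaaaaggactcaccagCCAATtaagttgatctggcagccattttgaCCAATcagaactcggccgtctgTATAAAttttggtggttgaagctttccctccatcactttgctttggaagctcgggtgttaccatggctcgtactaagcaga
H4c8 chr13:23530794-23531093 (+): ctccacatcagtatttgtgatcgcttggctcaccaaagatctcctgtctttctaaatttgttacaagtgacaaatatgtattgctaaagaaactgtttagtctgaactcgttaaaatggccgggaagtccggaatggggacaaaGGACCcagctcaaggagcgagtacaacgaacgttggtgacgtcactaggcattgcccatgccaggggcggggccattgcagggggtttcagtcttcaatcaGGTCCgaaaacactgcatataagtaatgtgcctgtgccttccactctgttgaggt
H1f4 chr13:23622509-23622808 (-): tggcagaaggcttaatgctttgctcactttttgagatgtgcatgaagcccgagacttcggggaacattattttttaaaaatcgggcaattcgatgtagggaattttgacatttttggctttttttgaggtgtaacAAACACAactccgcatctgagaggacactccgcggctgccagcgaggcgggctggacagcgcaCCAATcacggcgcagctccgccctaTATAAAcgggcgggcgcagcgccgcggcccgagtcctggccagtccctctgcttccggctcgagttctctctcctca
H1f6 chr13:23695561-23695860 (+): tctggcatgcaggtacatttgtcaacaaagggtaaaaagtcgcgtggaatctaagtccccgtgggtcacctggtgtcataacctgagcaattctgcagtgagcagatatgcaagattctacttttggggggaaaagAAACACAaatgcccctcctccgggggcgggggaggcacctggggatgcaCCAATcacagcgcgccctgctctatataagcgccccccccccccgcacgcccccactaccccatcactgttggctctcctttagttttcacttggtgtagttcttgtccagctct

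H2bc13 held 4 CCAAT matches and H2ac10 held 2, with TATAAA in neither. H3c10 held 2 CCAAT matches and 1 TATAAA match. H4c8 held 2 GGTCC matches, 1 on each strand, and no CCAAT. The linker histone genes H1f4 and H1f6 each held 1 AAACACA and 1 CCAAT match, and H1f4 held TATAAA as well.

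Over the 40 members with a start in the promoter table, CCAAT was present in 33 (82.5%), against 37.4% of all 32851 windows of the same length. It occurred in 4 of 4 H1, 11 of 11 H2A, 11 of 11 H2B and 5 of 5 H3 windows, but in 2 of 9 H4 windows. GGTCC was present in 9 of 9 H4 windows and in 17 of 40 over all classes, against 45.5% of all windows. AAACACA was present in 4 of 4 H1 windows and 5 of 40 members, against 7.18%. TATAAA was present in 24 of 40 (60%), against 13.6%. The octamer ATTTGCAT, known from H2B promoters, was present in 6 of 40 members, 3 of them H2A and 3 H2B, against 1.74%. The start windows of head-to-head H2A and H2B genes, such as H2bc13 and H2ac13, overlap, and both strands were searched. The same match can thus count at both genes of a pair, so these counts describe fewer promoters than genes. A motif here is a match of letters, and no binding was measured.

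Most of the members were marked in every library. A peak lay within 1 kb of 36, 38 and 39 of the 42 genes in KO replicates 1, 2 and 3, of 39, 37 and 36 in HxD and of 37, 37 and 37 in WT. In all 9 libraries together, 33 members had a peak each time. Over all coding genes 69.8% did. With every list shortened to the 49624 peaks of lowest q, 13 members had a peak in all 9. The share of all coding genes was not taken for the shortened lists, so this fall cannot be set against other genes.

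**Figure D1:**
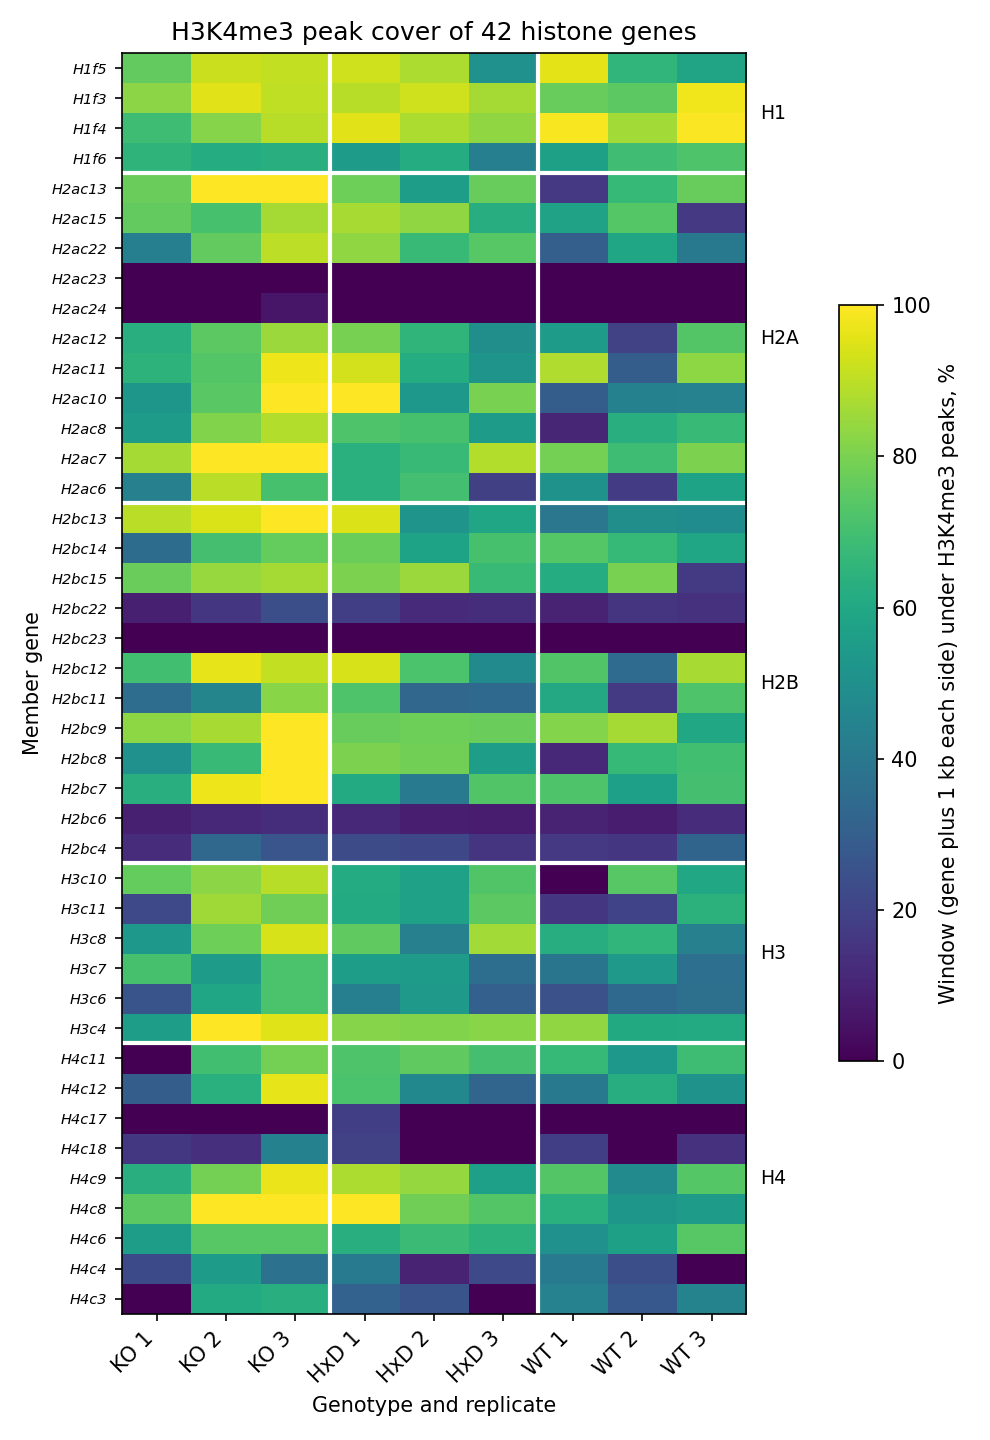
Share of each member's window, from 1 kb before to 1 kb after the gene, that lies under H3K4me3 peaks, in percent (colour), for 42 histone genes (rows, by class and then position) in the 9 libraries (columns). H2ac23, H2bc23, H2ac24 and H4c17 are dark in nearly every library, the windows of H2bc4, H2bc6 and H2bc22 are long and so covered to a small share, and the other rows are mostly between green and yellow.

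The 4 linker histone genes had a peak in all 9 libraries. H1f4, which encodes histone H1.4, had 1923, 2281 and 2485 covered bp in KO, 2657, 2441 and 2317 in HxD and 2752, 2401 and 2770 in WT, the highest mean of its class. The genotypes overlapped, with the lowest value in KO replicate 1, and KO minus WT was −411 bp (limma adjusted p = 0.556). H1f3, which encodes H1.3, had 2290, 2653 and 2514 in KO, 2478, 2577 and 2402 in HxD and 2129, 2077 and 2711 in WT. H1f5, which encodes H1.5, had 2126, 2574 and 2538 in KO, 2595, 2451 and 1412 in HxD and 2682, 1835 and 1629 in WT. In both genes the genotypes overlapped.

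H1f6 (formerly Hist1h1t) encodes the testis linker histone H1t, which is known to accumulate later, in meiotic spermatocytes. It lies at 23695811 to 23696545 on the + strand. It had 1777, 1698 and 1718 covered bp in KO, 1510, 1689 and 1177 in HxD and 1551, 1899 and 1985 in WT. A peak was thus called at this gene in all 9 libraries, and the genotypes overlapped: KO minus WT was −80.7 bp (limma adjusted p = 0.912) and HxD minus WT was −353 bp (adjusted p = 0.582). It had the lowest mean of the 4 H1 members, 1667 bp.

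H2A and H2B genes filled much of the list. H2ac7, an H2A gene, had the highest mean of its class, with 2193, 2535 and 2535 in KO, 1609, 1722 and 2245 in HxD and 2006, 1746 and 2032 in WT. Every KO library was above every WT library there, and HxD spanned the WT range. H2bc6 had the highest mean of the H2B genes, with 3501, 4374 and 5183 in KO, 4610, 3295 and 3146 in HxD and 3988, 3144 and 4984 in WT. Its annotated span of 37455 bp reaches the window of H1f4, so its value includes the peaks of neighbours. H2bc22, H2bc4 and H2bc23 are also annotated over long spans, of 14079, 8282 and 3788 bp, and the other 38 members span 2 kb or less.

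Among the H3 genes the lowest mean was at H3c6, with 759, 1716 and 2083 in KO, 1256, 1570 and 896 in HxD and 717, 991 and 1075 in WT. The highest was at H3c4, with 1389, 2504 and 2381 in KO, 2046, 2025 and 2061 in HxD and 2087, 1518 and 1526 in WT. At both genes KO replicate 1 was far below the other KO libraries. Among the H4 genes the highest mean was at H4c8 and the lowest at H4c17, both described below.

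Of the 9 members without a peak in at least 1 library, 4 had almost none. H2bc23 and H2ac23, an H2B and an H2A gene, had 0 covered bp in all 9 libraries. H2ac24 had 150 bp in KO replicate 3 and 0 elsewhere, and H4c17 had 443 bp in HxD replicate 1 and 0 elsewhere. H4c18 had 394, 321 and 1061 in KO, 464, 0 and 0 in HxD and 450, 0 and 346 in WT. These 5 genes are neighbours in the 17-gene block, between 21806412 and 21833475.

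Those 5 genes share their promoters with other genes almost letter for letter. H4c17 (21811746 to 21812150, +) and H4c18 (21831792 to 21832197, −) had 285 consecutive bases of their 300-base start windows in common, printed here as the case where both copies are members.
H4c17 and H4c18 shared run: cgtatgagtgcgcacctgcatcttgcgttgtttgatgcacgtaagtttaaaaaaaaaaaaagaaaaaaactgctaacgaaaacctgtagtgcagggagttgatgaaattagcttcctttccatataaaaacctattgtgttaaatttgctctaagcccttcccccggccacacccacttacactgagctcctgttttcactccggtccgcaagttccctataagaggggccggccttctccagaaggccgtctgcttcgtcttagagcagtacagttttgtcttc

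The start window of H2bc23 was identical over all 300 bases to that of a gene listed as H4bc24 in the same block, which the rule does not take in and which had 0 covered bp in all 9 libraries. H2ac23 shared 267 bases with it on the opposite strand and 200 with H2ac24, and H2ac24 shared 233 with H2bc23 on the opposite strand. The next longest run, between H4c11 and H4c12, was 72 bases, and the median over the members was 19. The 5 members with runs over 100 bases were the 5 with peaks in 0, 0, 1, 1 and 6 libraries, and each of the other 35 with a start window had a peak in 7 or more. The sources used here do not say how reads matching several places were treated, and the part of that step in these low values was not tested.

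**Figure D2:**
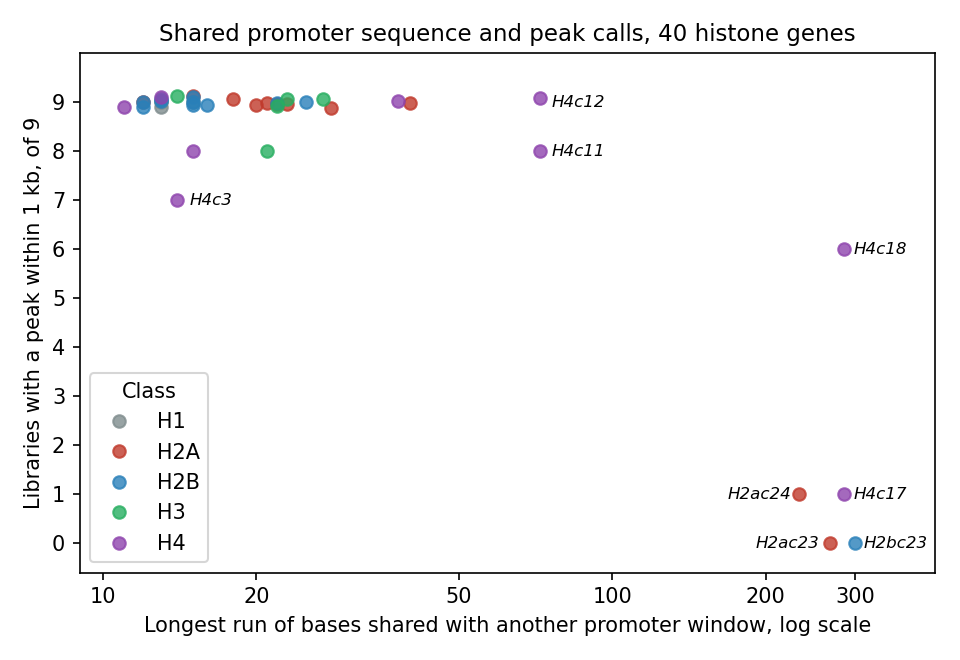
Longest run of identical bases between a member's start window and that of another gene (horizontal axis, log scale) against the number of libraries, of 9, with a peak within 1 kb (vertical axis), for the 40 members with a start window, coloured by class. The 5 genes at the right share 233 to 300 bases and had peaks in 0 to 6 libraries, and the points at 9 libraries are spread slightly up and down to show them all.

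The other 4 members with a gap were H4c3, H4c4, H4c11 and H3c10, 3 of them H4 genes. H4c3, the last member at the upper end of the interval, had 0, 1451 and 1489 in KO, 750, 617 and 0 in HxD and 1054, 650 and 1062 in WT. H4c4 had 544, 1326 and 908 in KO, 997, 235 and 530 in HxD and 989, 579 and 0 in WT. H4c11 had 0, 1692 and 1914 in KO, 1756, 1831 and 1709 in HxD and 1619, 1290 and 1666 in WT. The gaps thus fell in single libraries of each genotype and not in all libraries of any.

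On group means, Tet1 KO cells tended to have more covered bp than WT at these genes, without a single gene passing the test. By library, the member median was 1390.5, 1891.5 and 2247.5 bp in KO and 1429.5, 1426 and 1519.5 bp in WT. KO replicate 1 was thus below every WT library on this value, and the other KO libraries were above. The mean over the KO libraries was higher than the WT mean at 35 of the 42 members, lower at 4 and equal at 3, with a median difference of +392.2 bp. Over the 17664 coding genes tested 48.7% were higher and the median difference was −22.3 bp, and over all coding genes 40.9% were higher and the median was 0. Over the 726 other tested coding genes with spans of 2 kb or less, 34.0% were higher and the median was −172 bp. The comparison was made with limma on covered bp over coding genes with a peak in at least 3 libraries, which 38 members passed, with Benjamini-Hochberg adjustment over all genes tested. None of the members was called in either direction at an adjusted p below 0.05. In the background 0.0849% of genes were called higher in KO and 1.15% lower. At an unadjusted p below 0.05, 6 members were higher (background 5.94%) and 0 lower (background 11.4%). Every KO library lay above every WT library at 7 members (background 8.19%) and below at none (background 12.2%).

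The difference varied between classes, which were not tested against each other. The median difference from WT was +643 bp over the 11 H2A genes, +626.5 over the 6 H3 genes, +427 over the 12 H2B genes, +284 over the 9 H4 genes and +49.7 over the 4 H1 genes. Higher means were found at 10 of 11 H2A, 6 of 6 H3, 10 of 12 H2B, 7 of 9 H4 and 2 of 4 H1 genes. Members of a pair share peaks, so these counts describe fewer promoters than genes. By block, the median was +364 bp over the 17 genes of the lowest block, +355 over the 5 of the middle block and +422 over the 20 of the highest.

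The largest difference was at H2bc13 (formerly Hist1h2bl, 21715711 to 21716183, −), the lowest member of the interval, whose start region is printed above. It had 2213, 2331 and 2473 covered bp in KO, 2343, 1280 and 1454 in HxD and 980, 1221 and 1206 in WT. All 3 KO libraries were far above all 3 WT libraries, the highest of them at the ceiling of the window, and HxD also lay above WT, with replicate 1 near KO. KO exceeded WT by 1203 bp (SE 327, limma adjusted p = 0.0931), and HxD exceeded WT by 557 bp (adjusted p = 0.424). Among coding genes of 2 kb or less alone, the KO difference at H2bc13 passed the test (limma adjusted p = 0.0333). In that fit 7 of the 761 genes tested were called higher in KO and 60 lower.

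Its head-to-head partner H2ac13 (21716412 to 21716859, +) had 1884, 2448 and 2448 in KO, 1906, 1371 and 1881 in HxD and 408, 1644 and 1882 in WT. KO lay above WT throughout, though KO replicate 1 and WT replicate 3 were almost level, and HxD overlapped WT (limma adjusted p = 0.244 for KO and 0.663 for HxD). The adjacent H3 gene H3c10 (21717628 to 21718115, +) had 1896, 2057 and 2217 in KO, 1532, 1419 and 1816 in HxD and 0, 1839 and 1493 in WT. KO again lay above WT, and the WT mean includes a library with no peak. KO exceeded WT by 946 bp (SE 416, limma adjusted p = 0.265).

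H4c8 and H2ac10, an H4 and an H2A gene, are neighbours at the lower end of the highest block. H4c8 (23531044 to 23531478, +) had 1818, 2435 and 2435 in KO, 2435, 1906 and 1780 in HxD and 1547, 1286 and 1350 in WT. Both mutants lay above WT in every library, and 3 mutant libraries covered the whole window. KO exceeded WT by 835 bp (limma adjusted p = 0.209) and HxD by 646 bp (adjusted p = 0.332).

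H2ac10 (23533875 to 23534378, +) had 1329, 1861 and 2504 in KO, 2504, 1333 and 2003 in HxD and 741, 1105 and 1115 in WT. Again both mutants lay above WT in every library, with SE 378 bp each: KO by 911 bp (limma adjusted p = 0.241) and HxD by 960 bp (adjusted p = 0.217). H3c7 had 2063, 1600 and 2082 in KO, 1623, 1596 and 1052 in HxD and 1125, 1573 and 1063 in WT. There KO lay narrowly above WT, and HxD overlapped WT.

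**Figure D3:**
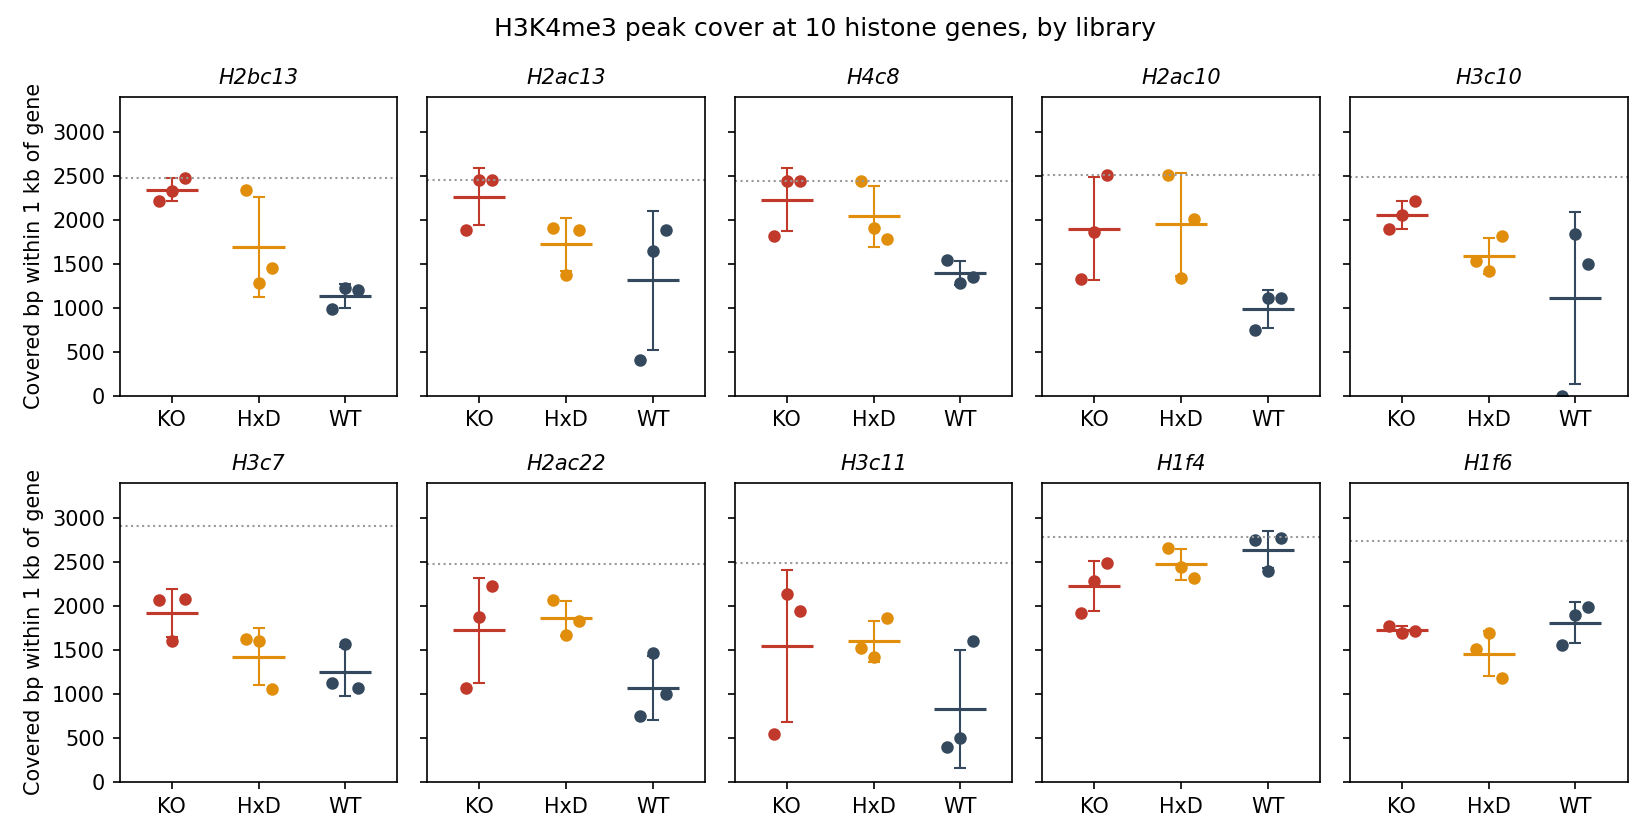
Covered bp within 1 kb of 10 histone genes (vertical axis) in each library (points), with the genotype mean (line) and SD (bars, n = 3), for KO, HxD and WT from left to right; the dotted line is the whole window. At H4c8 and H2ac10 all 3 KO and all 3 HxD points lie above the WT points, and at H1f4 and H1f6 they do not.

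On group means, HxD cells also had more covered bp than WT at most members, by a smaller median. By library, the member median was 1892.5, 1637 and 1494 bp in HxD, the last of them within the WT range. The HxD mean was higher than WT at 29 of the 42 members, lower at 10 and equal at 3, with a median difference of +163 bp. Over the coding genes tested 31.8% were higher and the median was −250 bp, and over the short non-members 27.3% were higher and the median was −226 bp. None of the members passed the limma test (background 0.00566% higher and 1.61% lower). At an unadjusted p below 0.05, 2 members were higher (background 1.19%) and 0 lower (background 15.7%). Every HxD library lay above every WT library at 5 members (background 3.1%) and below at none (background 18.2%). KO and HxD were both compared with the same 3 WT libraries, so their differences from WT are not independent of each other.

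By class, the HxD median differences were +391.7 bp over the H2A genes, +323 over the H3 genes, +107 over the H4 genes, +42.5 over the H2B genes and −32.7 over the H1 genes. H2ac22, an H2A gene at 21786774 to 21787248, had 1065, 1879 and 2230 in KO, 2065, 1675 and 1832 in HxD and 749, 1467 and 1000 in WT. HxD lay above WT in every library there (+785 bp, limma adjusted p = 0.273), and KO replicate 1 fell within the WT range. H3c11 had 549, 2133 and 1948 in KO, 1517, 1420 and 1859 in HxD and 395, 497 and 1598 in WT. WT replicate 3 lay within the range of the mutants there, and HxD exceeded WT by 769 bp (limma adjusted p = 0.402). At H4c11, whose values stand above, HxD also lay above WT.

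**Figure D4:**
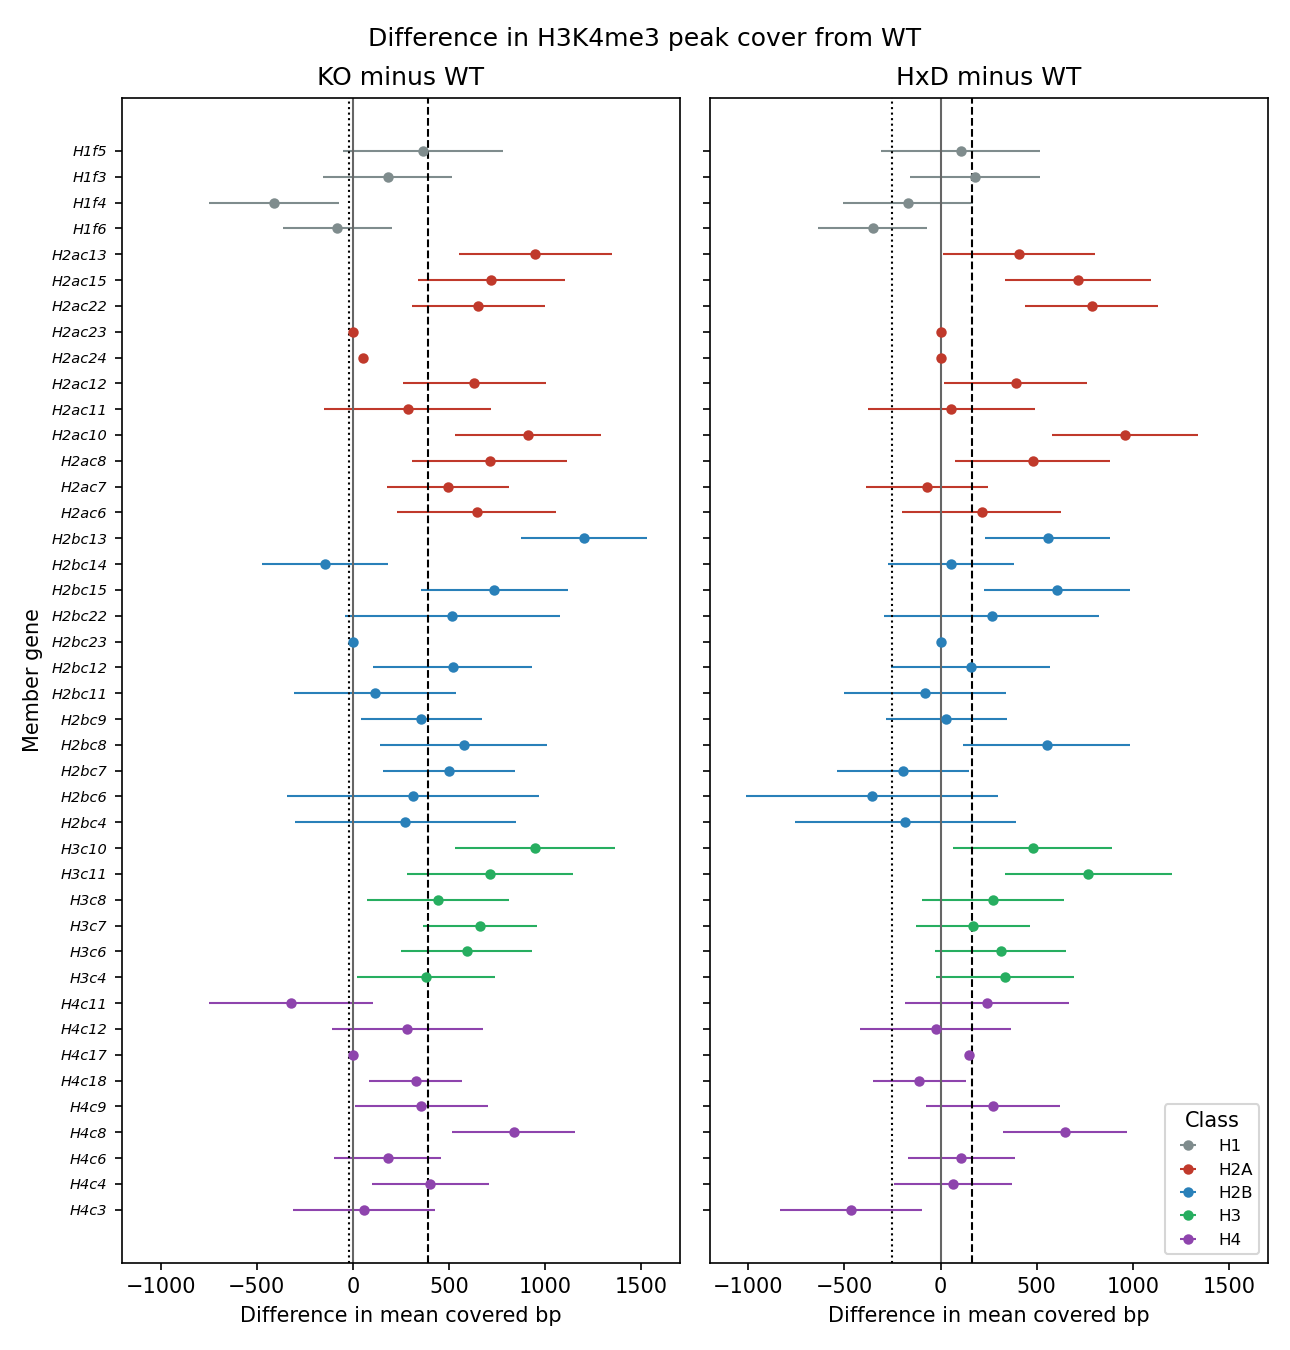
Difference in mean covered bp from WT for KO (left) and HxD (right) at the 42 members (rows, coloured by class), with the limma SE where the gene was tested; the dashed line is the median of the members and the dotted line that of all coding genes tested. The dashed line stands at +392.2 bp for KO and +163 bp for HxD, the dotted line at −22.3 and −250 bp, and H1f4 and H1f6 lie below 0 in both panels.

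Directly compared, KO had a higher mean than HxD at 32 of the 42 members and a lower mean at 7, with a median difference of +230 bp. Over all coding genes tested 74.8% were higher in KO, close to the 76.2% of the members. The median over those genes was +222 bp, also close to that of the members. No member was called (limma, all member adjusted p = 1.0), and 0% of genes were called higher or lower in the background, with 0 members at an unadjusted p below 0.05. In the background 659 of the 17664 genes tested were higher and 44 lower at that unadjusted p. Cells with the inactive protein and cells without TET1 were not told apart at any member by the limma test.

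Single libraries moved these medians. Without KO replicate 1 the KO median difference was +700.5 bp, and without KO replicate 3 it was +233 bp, with 37 and 29 members higher. Over the coding genes tested, the medians were then +158 and −152 bp. For HxD the median was +57.2 bp without HxD replicate 1, +268 without HxD replicate 3, +102 without WT replicate 1, +79.2 without WT replicate 2 and +249 without WT replicate 3. In each of these settings the median of the coding genes tested was lower than that of the members. Centring every library on its mean over the coding genes tested gave 4 members called higher in KO (H2bc13, H2ac13, H4c8 and H2ac10) and 5 in HxD (H2bc13, H3c11, H2ac22, H4c8 and H2ac10). That scaling called 814 of the 17664 genes tested higher in KO and 560 in HxD, against 15 and 1 without it. It moved the median of all genes to +223 bp in KO and +288 bp in HxD.

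Peaks touching a member window numbered 37, 35 and 33 in KO, 33, 30 and 37 in HxD and 38, 41 and 43 in WT. Their median length was 831, 1764 and 2290 bp in KO, 1760, 1680 and 961 bp in HxD and 939, 809 and 913 bp in WT. KO replicate 1 was thus within the WT range of lengths, and HxD replicate 3 just above it. Over the whole lists the mutants also had fewer peaks than any WT library, as given above, and the median length was 433, 669 and 672 bp in KO, 793, 679 and 673 bp in HxD and 725, 780 and 641 bp in WT. The longest peaks at members, of 7165 bp in KO replicate 3 and 7154 bp in HxD replicate 1, lay in the region over H4c8, H2ac10 and H3c8, and the longest in WT was 2919 bp.

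Around the starts of the 39 members with a single annotated start, the mark was called over the gene and its flanks. At the start itself 56.4%, 82.1% and 84.6% of members were under a peak in KO, 69.2%, 69.2% and 61.5% in HxD and 43.6%, 56.4% and 66.7% in WT. At 500 bp downstream, which is near the end of most of these genes, the shares were 69.2%, 84.6% and 89.7% in KO, 87.2%, 76.9% and 74.4% in HxD and 61.5%, 64.1% and 56.4% in WT. At this distance the mutant libraries lay above the WT libraries at the members, and over 17444 other coding genes the genotypes overlapped, with 53.7% to 62.7% in KO, 56.1% to 62.0% in HxD and 54.2% to 61.2% in WT. At 2000 bp downstream the shares were 15.4% to 35.9% over all 9 libraries.

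**Figure D5:**
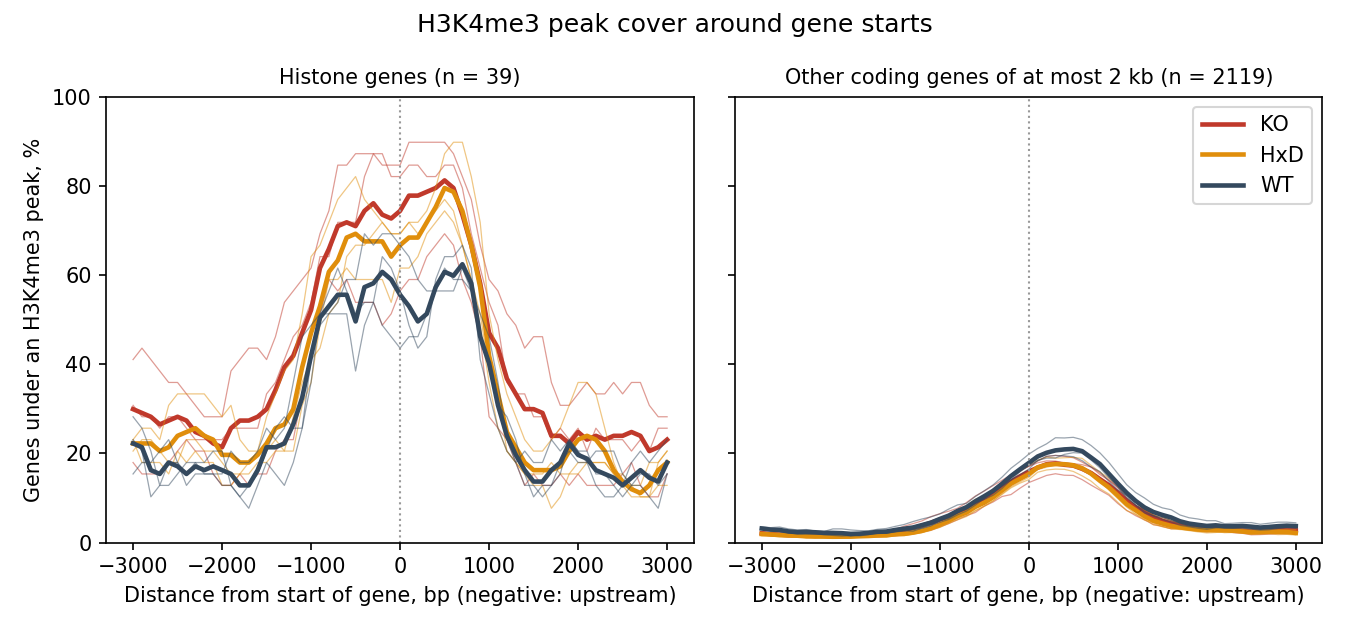
Share of genes under an H3K4me3 peak (vertical axis, percent) by distance from the start of the gene (horizontal axis, bp, negative upstream), for 39 histone genes (left) and 2119 other coding genes of at most 2 kb (right); thin lines are libraries and thick lines the means of KO, HxD and WT. At 500 bp the histone genes stand between 56.4% and 89.7% in the 9 libraries. WT lies lowest there on the left and highest on the right.

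The strongest peak within 1 kb of each member was ranked within its own list. The median rank by the authors' −log10 q was at the 86.1, 83.2 and 86.8 percentile in KO, at 78.6, 73.1 and 69.2 in HxD and at 59.9, 66.6 and 76.3 in WT. The median of the authors' fold enrichment at those peaks was 12.03, 14.5 and 16.9 in KO, 11.3, 10.3 and 9.05 in HxD and 7.88, 8.12 and 11.6 in WT. Lists of different lengths give ranks that cannot be compared between libraries, so these values only describe each list. H1f3 had the peak of highest fold and highest −log10 q among the members in KO replicate 1 and in WT replicate 1. In KO replicate 2 it was level with H2bc6 and H1f4 in fold, at 23.6. By −log10 q H1f5 was highest in that library, at 69.1 against 61.0 at H1f3.

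Over the whole 2.1 Mb, peaks were fewer in the mutants and the covered length was not distinguishable. The interval held 130, 142 and 130 peaks in KO, 135, 104 and 135 in HxD and 160, 145 and 191 in WT. KO had 0.810 and HxD 0.754 times as many as WT, with no overlap between either mutant and WT (two-sided exact permutation test, p = 0.1 each, the smallest that 3 against 3 allow). As a share of all peaks in each list the direction turned, to 1.11 times WT in KO and 1.28 times WT in HxD. Covered length was 116367, 169241 and 209349 bp in KO, 177996, 125346 and 131025 bp in HxD and 149893, 137895 and 186251 bp in WT. It was 1.04 times WT in KO and 0.916 times WT in HxD (exact permutation p = 0.9 and 0.5), and 1.14 times HxD in KO (p = 0.7). As a share of the whole covered length of its list, the interval took 0.230%, 0.232% and 0.301% in KO, 0.257%, 0.275% and 0.244% in HxD and 0.180%, 0.180% and 0.171% in WT. On that scale every mutant library was above every WT library.

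The merged member windows made up 6.72% of the interval. They held 39221, 58209 and 65654 covered bp in KO, 55999, 45718 and 42375 in HxD and 41387, 39575 and 46642 in WT, which is 1.28 times WT in KO and 1.13 times WT in HxD. KO replicate 1 was below every WT library in these windows. The remainder of the interval came to 0.958 and 0.838 times WT. Of the 36 vomeronasal receptor genes there, 31 had no peak in any library.

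Merging the peaks of all libraries gave 186550 regions in the genome and 206 in the interval, 37 of them at members. Of those 37, 20 (54.1%) were present in all 9 libraries, against 13.8% of all regions. Of all regions 48.3% were in 1 library only, against 18.9% of those at members. By gene the gap was smaller: 33 of the 42 members had a peak in all 9 libraries, against 69.8% of coding genes. None of the 37 was in every library of one genotype and in none of another. Across the genome 3.64% of regions had all 3 WT libraries and no KO library, and 0.112% had all 3 KO libraries and no WT library. Away from the members, 5 regions of the interval had all 3 WT libraries without any KO library, and 4 had all 3 WT libraries without any HxD library. A region at 23328931 to 23330968, 22135 bp from the zinc finger gene Zfp322a, was in every KO and no WT library, with 771, 317 and 1726 bp in KO, 370, 0 and 0 in HxD and 0, 0 and 0 in WT.

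The 3 longest regions of the interval were present in all 9 libraries. That at 23529143 to 23536760 covers H4c8, H2ac10 and H3c8. It held 3978, 5550 and 7165 covered bp in KO, 7154, 3759 and 4966 in HxD and 3130, 3560 and 3054 in WT, so every mutant library lay above every WT library. That at 23569941 to 23577486 covers H2ac8, H2bc8, H2bc7, H2ac7 and H3c4 and held 3997, 6739 and 6995 in KO, 5096, 4530 and 4996 in HxD and 3690, 4198 and 4776 in WT. There KO replicate 1 and HxD replicate 2 fell within the WT range. The longest, at 23429299 to 23440478, lies 5433 bp from Abt1 and near no member.

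Histone genes outside the rule showed the following. H1f2, at 23738807 to 23739531, is the nearest histone gene beyond the upper end of the interval and encodes H1.2. It had 2395, 2394 and 2552 covered bp in KO, 2407, 2400 and 2254 in HxD and 2439, 1755 and 1840 in WT. The last member inside, H4c3, had 7 libraries with a peak and H1f2 had 9. Among the 9 histone genes from there to 23800 kb, 9 had higher means in KO than in WT (median difference +436 bp), against 4 in HxD (−21.3 bp).

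Of 12 replication-dependent histone genes on other chromosomes, 10 had higher means in each mutant, with median differences of +212 bp in KO and +206 bp in HxD, and none was called. Of 9 testis histone and protamine genes outside the interval, 0 were higher in KO and 8 lower (median −134 bp), and 1 was higher in HxD and 7 lower (−134 bp), with none called. Of 22 genes for histone gene transcription and histone mRNA processing, 19 were higher and 3 lower in KO (+418 bp), and 13 were higher and 9 lower in HxD (+199 bp), again with none called. Npat, which encodes the activator of the histone locus body, had 2818, 2354 and 2710 in KO, 2504, 2187 and 1871 in HxD and 1416, 1712 and 1483 in WT. Every mutant library was above every WT library at Npat (limma adjusted p = 0.116 in KO and 0.328 in HxD).

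Of 12 replacement and variant histone genes, 9 were higher and 3 lower in KO (median difference +593 bp), and 7 were higher and 5 lower in HxD (+142 bp). H3f3b, which encodes the replacement histone H3.3, was called higher in KO. It had 1298, 1479 and 1208 covered bp in KO, 1118, 656 and 959 in HxD and 281, 0 and 395 in WT, so the groups did not overlap. KO exceeded WT by 1103 bp (SE 225, limma adjusted p = 0.0379) and HxD exceeded WT by 686 bp (adjusted p = 0.145). The KO call was lost when any single KO or WT library, or HxD replicate 2 or 3, was left out, with limma adjusted p between 0.051 and 0.129. It was also lost in a fit over KO and WT alone (limma adjusted p = 0.0844), on the log2 scale (0.178) and in a window of 1 kb around the start (0.0955).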

How the data were processed

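Per the labels, H3K4me3 CUT&RUN was done on 3 biological replicates of each of 3 genotypes. IgG samples were left out of the comparisons. The build was mm10, per the submitters' processing notes, and the tools were MACS2 2.1.0, Bowtie2 2.5.0, Trim Galore, bedtools 2.27.1, SAMtools 1.16.1 and deepTools 3.5.1. No source used here gives their settings. The deposited files are peak lists, 1 per library, in the narrow peak layout of MACS2. Each peak has the authors' integer score, a linear fold ratio over background at its summit, and its −log10 of p and of q. The deposited −log10 q ranked and filtered peaks inside each list, and the other columns only described peaks. The lists hold no read counts, so the depth is unknown.

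Coordinates are 1-based. Genes and start windows came from RefSeq tables of GRCm38.p6, the assembly of mm10. Covered bp were summed over each coding gene plus 1 kb on each side with Python 3.11.15, numpy 2.4.6 and pandas 2.3.3. Genes with a peak in at least 3 libraries were fitted with limma 3.58.1 in R 4.3.3 on all 9 libraries, with a trended eBayes step and adjusted p (Benjamini-Hochberg) below 0.05 as the call, after a check on simulated data. Interval totals were compared by exact permutation tests. Shared runs were sought on both strands between start windows of histone genes on chromosome 13.

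Per-library values are given for members called in a contrast, for the smallest p and the highest and lowest mean of each class, for members lacking a peak in a library, for H1f6 and for genes at the ends of the interval. Values for H3c7, H2ac13, H2ac22, H1f3, H1f5, Npat and H3f3b were added after their values were seen. The members and lists were chosen with earlier results of these data known. Alternatives were a stricter q, lists of equal length, other windows and interval ends, centring, other filters and scales, a replicate block and leaving out each library.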

Additional observations from a re-analysis of the deposited data

How the results depend on the processing

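The counts of called members stayed at 0 in all contrasts under 19 of 21 alternatives for KO against WT, 20 of 21 for HxD against WT and 21 of 21 for KO against HxD. Centring gave 4 in KO and 5 in HxD, where 814 and 560 of all 17664 genes tested were called higher. Coding genes of at most 2 kb gave 1 in KO, where 7 of all 761 genes tested were called higher. Leaving out single libraries gave 0 throughout. The member median difference was positive in all alternatives, but some of them could not change it. These were no filter, the fit over the compared genotypes alone, the replicate block and leaving out a library of the other genotype. With lists of equal length it was 759 bp in KO and 520 bp in HxD (all tested genes 292 and 118 bp), and centring gave 701 bp in HxD. Leaving out single libraries gave 233 to 700.5 bp in KO and 57.2 to 268 bp in HxD. Members with a peak in every library fell to 13 with lists of equal length, without a matching count for all coding genes.

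Interval values turned with scaling. Covered length in HxD over WT was 1.30 with lists of equal length and 1.46 as a share of the list. KO over HxD was 0.984 as a share. Peak number over WT was 1.24 with lists of equal length and 1.11 as a share in KO, and 1.31 and 1.28 in HxD. Leaving out single libraries gave covered length ratios of 0.904 to 1.2 in KO over WT, 0.811 to 1.01 in HxD over WT and 0.986 to 1.31 in KO over HxD. The cause was not tested.

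Same-numbered libraries did not pair: their residual correlations ran from −0.658 to 0.448. With the replicate block no member was called (0 in each contrast), and all-gene calls were 4 higher and 90 lower in KO and 0 higher and 133 lower in HxD, against 15, 204, 1 and 285 without it. H3f3b had an adjusted p of 0.0781 in KO with the replicate block (limma). The 1 kb around the RefSeq start was an alternative chosen after seeing the data.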
